A study of Homo sapiens with 83 samples.

Results

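10 genes of the contractile actin apparatus and of the transcription factor that drives many of them were followed in neuroblastoma cells with N-MYC held inactive or made active. They are SRF, ACTA2, TAGLN, CNN1, CNN2, MYL9, TPM1, TPM2, CALD1 and CAV1, taken by gene symbol from a table of 60237 genes, so 10 of 60237. All 10 symbols were found. The study sequenced polyadenylated RNA of SHEP and SKNAS, which are established human neuroblastoma lines, and 83 libraries were analysed. Both lines carried N-MYC-ER, a constitutively made fusion of N-MYC with a hormone-binding domain that keeps it out of the nucleus until 4-hydroxytamoxifen (4OHT) is given. MYC-ON cells received 4OHT and MYC-OFF cells the ethanol vehicle, and a day later every culture, in both conditions, received dexamethasone, a glucocorticoid that sets cellular clocks to one phase. Circadian time (CT) counts hours after dexamethasone. The SHEP groups held 28 libraries each, from 2 series collected every 4 h from CT24 to CT76. SKNAS had 1 series per condition, with 14 MYC-OFF libraries from CT24 to CT76 and 13 MYC-ON libraries from CT24 to CT72. Each line is 1 engineered cell line, and the time points of a series come from 1 experiment. The p-values below therefore rest on the spread of libraries around the fit, with time points as replicates unless stated otherwise. In SHEP the comparison of MYC-ON with MYC-OFF leaves the difference between the 2 series in that spread. In SKNAS no second experiment was analysed.

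Actin filaments generate force when myosin pulls on them. In non-muscle cells these filaments form stress fibres, where tropomyosins, caldesmon and calponins lie along the actin and set the access of myosin to it. SRF (serum response factor) binds the CArG box, a short A/T-rich element flanked by CC and GG. It works with 2 sets of partners, the MRTF coactivators, which are released when free actin monomers run low, and the ternary complex factors ELK1, ELK3 and ELK4, which answer to growth factor signalling. Several of the genes described here, among them ACTA2, TAGLN and CNN1, are textbook SRF targets and are used as markers of smooth muscle and of activated mesenchymal cells. In neuroblastoma, actin and adhesion genes are known to be higher in the mesenchymal than in the adrenergic cell state.

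CArG boxes were searched in RefSeq promoter windows (build GRCh38.p14). They run from 250 bases before to 50 bases after a RefSeq start site, which can differ from the Gencode gene start. The table held 16 windows for 8 of the 10 genes, all but TAGLN and MYL9. A CArG box, searched on both strands, was found in 2 of these 8 genes, SRF itself with 2 boxes and CNN2 with 1, beside 1.6% of all 27305 genes with a window. By window it was 2 of 16, whereas 1.29% of all 35116 windows held a box and 0.0313% held 2 or more. The 250 bases before the SRF start (chr6:43171019-43171268, + strand) are shown because both boxes of the factor's own promoter lie at their end. The boxes are in capitals.
SRF: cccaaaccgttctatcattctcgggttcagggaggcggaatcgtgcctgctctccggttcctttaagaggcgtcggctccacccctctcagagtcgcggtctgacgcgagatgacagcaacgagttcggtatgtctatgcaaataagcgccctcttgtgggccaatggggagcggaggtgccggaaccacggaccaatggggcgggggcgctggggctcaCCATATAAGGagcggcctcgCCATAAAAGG
For comparison, the 3 boxes with 10 bases on either side are given below, again in capitals, at chr6:43171229-43171258, chr6:43171249-43171278 and chr19:1026509-1026538, all on the + strand.
SRF, box from -30 to -21: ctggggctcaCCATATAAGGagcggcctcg
SRF, box from -10 to -1: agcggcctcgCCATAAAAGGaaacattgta
CNN2, box from -89 to -80: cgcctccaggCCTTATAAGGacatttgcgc
Positions count from the RefSeq start site of each window, at 43171269 for SRF and 1026608 for CNN2. The MYC E-box CACGTG was in 0 of the 16 windows and in 7.26% of all windows. A CArG box was counted only where every base between CC and GG was A or T, so boxes with a G or C there were missed. The ACTA2 window at chr10:88952724-88953023 holds such near matches. A match is a string of letters, not a bound site, and windows of this length leave out first introns and distal elements.

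Levels are in TPM, a measure of transcript abundance per length in which every library has the same total, so the read depth behind a value is unknown. Tests used limma on log2(TPM + 1) with CT as a factor, on genes whose mean reached 1 TPM. Calls needed a Benjamini-Hochberg adjusted p no larger than 0.05 together with a change of 0.15 or more on the log2 scale, and 0.66 or more for calls at 1.5-fold. Every log2 change below is on this scale, and for a gene near or under 1 TPM it comes out smaller than the ratio of the TPM. The SKNAS libraries stood apart from one another. The library median of log2(TPM + 1) was between 3.93 and 4.17 in all 56 SHEP libraries, but between 2.97 and 4.38 in SKNAS MYC-OFF and between 2.76 and 4.25 in SKNAS MYC-ON. It was at least 3.8 in 10 of 14 MYC-OFF and in 3 of 13 MYC-ON libraries of SKNAS. The SKNAS results are therefore also given for those 13 libraries alone, a fit with CT as a linear term in which the median change of all genes was -0.055. MYCN, whose reads include those of the fusion, was examined in every library, although 4OHT acts on the protein and not on its RNA. In SHEP it fell in MYC-ON (-0.57, SE 0.057, limma adjusted p = 2.89e-12), from a median of 559.9 to 353 TPM. In SKNAS it gave -0.67 (SE 0.55, limma adjusted p = 0.329), and 0.020 in the 13 libraries.

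Of 10 mesenchymal neuroblastoma markers, 9 or 10 had a group median of at least 1 TPM in every group. The adrenergic genes PHOX2A, TH and DBH had medians below 0.1 TPM in SHEP, while in SKNAS 7 of 10 adrenergic markers reached 1 TPM. The smooth muscle myosin MYH11 and the channel subunit KCNMB1 had medians below 0.1 TPM in every group, and 2 of 10 smooth muscle markers in SHEP and 5 of 10 in SKNAS reached 1 TPM. In bulk RNA, fewer cells of a type and less RNA per cell cannot be told apart.

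TPM1 led the order of the levels in 3 of the 4 groups. In SHEP MYC-OFF, TPM1, a tropomyosin that winds along actin filaments, was the highest at a median of 646 TPM (518 to 842), above and not overlapping with the rest. 5 genes followed closely, from CNN2 at 229.9 TPM through CALD1 at 227 TPM, CAV1 at 213 TPM and TPM2 at 206 TPM to TAGLN at 194 TPM, and the ranges of neighbours in this order overlapped. ACTA2 at 99.0 TPM still overlapped with TAGLN, while SRF at 30.2 TPM and CNN1 at 3.82 TPM stood clear of the gene above them. In SKNAS MYC-OFF, TPM1 was again first at 545 TPM and TPM2 next at 243 TPM, with overlapping ranges. CALD1 (106 TPM), CAV1 (69.9 TPM), ACTA2 (38.9 TPM), CNN2 (34.7 TPM) and SRF (18.5 TPM) formed a chain of overlapping neighbours. TAGLN at 4.06 TPM overlapped with SRF, whose lowest library lay at 1.57 TPM, and CNN1 was at 0.357 TPM. With N-MYC active, SHEP had TPM1 at 294 TPM and TPM2 at 279 TPM with overlapping ranges. In SKNAS MYC-ON, TPM2 was first at 529 TPM and did not overlap with TPM1 at 195.5 TPM. Summed over the 10 genes, the medians were 1862 and 1272 TPM in SHEP MYC-OFF and MYC-ON, and 1079.8 and 883 TPM in SKNAS.

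MYL9 (ENSG00000101335; chromosome 20, 36541497 to 36551447, + strand), a regulatory light chain of smooth muscle and non-muscle myosin, was barely detected. It was listed at 0 in 27 of 28 SHEP MYC-OFF, 25 of 28 SHEP MYC-ON, 9 of 14 SKNAS MYC-OFF and 8 of 13 SKNAS MYC-ON libraries. Its highest value was 0.046 TPM in SHEP and 0.177 TPM in SKNAS. It was not tested in any comparison, and a listed 0 can also be a failed estimate.

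The first question was how the set responded to active N-MYC. In SHEP, 9 of the 10 genes were tested, and 6 of them fell, 1 rose and 2 were not called. The decrease was led by CNN1, TPM1 and CNN2, with log2 changes of -1.27, -1.09 and -0.996, while TPM2 rose. Against this, 71.8% of all 14362 genes tested in SHEP were called, 38.9% lower and 33% higher, so a call is common there. At the 1.5-fold threshold 3 of the 9 fell, against 11.4% of all genes. The median log2 change of the 9 genes was -0.49, and that of all tested genes was -0.036. In SKNAS, 8 genes were tested, 5 fell, 1 rose and 2 were not called, where 48.1% of all 13886 genes were called, 34.4% lower and 13.7% higher. All 5 decreases passed 1.5-fold, which 23.8% of all SKNAS genes did in that direction. The median over the 8 genes was -1.02 and over all SKNAS genes -0.29, which became -0.068 when each library was rescaled by its median ratio to the gene means. The split of all SKNAS calls went from 1903 higher and 4772 lower to 3153 and 3988 with that rescaling, and to 3924 and 3620 with the library median as covariate. In the 13 SKNAS libraries with a median of at least 3.8, 7 of the 8 genes were called, 5 lower and 2 higher, where 48.5% of all 14217 genes were called, 27.5% lower and 21% higher. Their median was -1.08 beside -0.055 for all genes.

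The tropomyosins changed in opposite directions. TPM1 (ENSG00000140416; chromosome 15, 63042620 to 63071915, + strand; coordinates here and below are GRCh38, Gencode 44) held 518 to 842 TPM (median 646) in SHEP without active N-MYC. It held 190.2 to 562 TPM (median 294) with it. The MYC-ON value was the lower one in 28 of 28 same-CT pairs, and 26 of the 28 MYC-ON libraries lay below every MYC-OFF library. The change was -1.09 (SE 0.049, limma adjusted p = 2.02e-24). SKNAS showed the same direction, from 229 to 728 TPM (median 545) down to 64.01 to 263 TPM (median 195.5), lower in 13 of 13 pairs with overlapping groups. There the change was -1.55 (SE 0.15, limma adjusted p = 1.09e-06), and -1.12 (limma adjusted p = 3.30e-05) in the libraries with a median of at least 3.8. Exons of TPM1 overlap with the antisense genes TPM1-AS and ENSG00000259627. Strand use in counting is not given in the sources used here, so reads from the shared stretches cannot be told apart.

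TPM2 (ENSG00000198467; chromosome 9, 35681992 to 35690056, - strand) encodes the beta tropomyosin and was called higher in both lines. SHEP MYC-OFF libraries ranged from 164 to 298 TPM (median 206) and MYC-ON libraries from 218 to 358 TPM (median 279), higher in 27 of 28 pairs with overlapping ranges. The log2 change was 0.45 (SE 0.060, limma adjusted p = 7.03e-09). In SKNAS the range went from 186 to 532 TPM (median 243) to 286 to 1217 TPM (median 529), higher in 12 of 13 pairs, again with overlap. That gave 1.08 (SE 0.19, limma adjusted p = 0.000278), and 0.53 (limma adjusted p = 0.00311) in the libraries with a median of at least 3.8. TPM2 tracked the library median inversely in SKNAS, with r = -0.94 over 14 MYC-OFF and -0.99 over 13 MYC-ON libraries, points that share library composition.

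The ratio of TPM1 to TPM2 within a library brings both shifts together. For SHEP it was 2.52 to 4.06 (median 3.17) in MYC-OFF and 0.639 to 2.13 (median 1.20) in MYC-ON, without overlap. For SKNAS it was 0.514 to 3.89 (median 2.12) in MYC-OFF and 0.0526 to 0.908 (median 0.347) in MYC-ON, with overlap. In the SKNAS libraries with a median of at least 3.8, the 10 MYC-OFF ratios were 1.76 to 3.89 and the 3 MYC-ON ratios 0.668 to 0.908, which do not overlap. The 4 MYC-OFF libraries with a lower median, at CT52, CT56, CT64 and CT72, had ratios from 0.514 to 2.06.

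**Figure D1:**
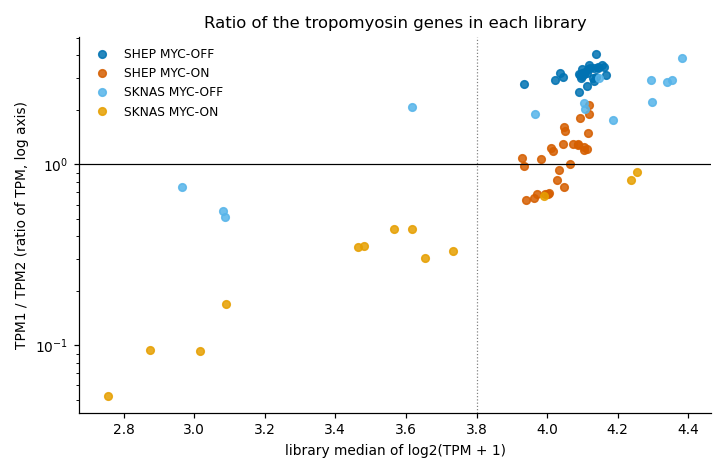
Ratio of TPM1 to TPM2 (log axis) against the library median of log2(TPM + 1), 1 point per library in the 4 groups, with the dotted line at a median of 3.8 and the solid line at equal levels. To the right of 3.8, MYC-ON points lie below MYC-OFF points of the same line. The SKNAS median ratio is lower to the left of 3.8 (0.648 in MYC-OFF and 0.317 in MYC-ON) than to the right (2.52 and 0.819).

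The calponins CNN1 and CNN2 and transgelin, small actin-binding proteins of one family, all fell in SHEP. CNN2 (calponin 2, ENSG00000064666; chromosome 19, 1026586 to 1039068, + strand) stood at 211 to 319.5 TPM (median 229.9) in SHEP MYC-OFF and at 63.6 to 155.5 TPM (median 125) in MYC-ON. No MYC-ON library reached the lowest MYC-OFF library, and the log2 change was -0.996 (SE 0.056, limma adjusted p = 1.29e-20). SKNAS had far less, 4.33 to 45.7 TPM (median 34.7) and 3.71 to 18.2 TPM (median 9.65), lower in 11 of 13 pairs with overlap. The change there was -1.32 (SE 0.26, limma adjusted p = 0.000659), and -1.26 (limma adjusted p = 4.79e-07) in the libraries with a median of at least 3.8. Among those, the 10 MYC-OFF libraries began at 29.3 TPM and the 3 MYC-ON libraries ended at 18.2 TPM. Exons of CNN2 overlap with ENSG00000279753 on the opposite strand.

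CNN1 (calponin 1, ENSG00000130176; chromosome 19, 11538767 to 11550323, + strand), the smooth muscle calponin, was low. It ranged from 1.07 to 14.7 TPM (median 3.82) in SHEP MYC-OFF and from 0.222 to 4.88 TPM (median 1.01) in MYC-ON, lower in 28 of 28 pairs with overlapping ranges. The log2 change was -1.27 (SE 0.064, limma adjusted p = 1.44e-22), and -1.85 with a pseudocount of 0.1, a scale that compresses values near 1 less. In SKNAS it lay between 0 and 1.61 TPM in MYC-OFF and between 0 and 0.354 TPM in MYC-ON, under the limit for testing.

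TAGLN (transgelin or SM22, ENSG00000149591; chromosome 11, 117199370 to 117207464, + strand) binds and bundles actin. In SHEP MYC-OFF it ranged from 117 to 354 TPM (median 194) and in MYC-ON from 90.4 to 194.6 TPM (median 126), lower in 28 of 28 pairs with overlap. The change was -0.64 (SE 0.048, limma adjusted p = 1.89e-16). SKNAS had 1.85 to 5.08 TPM (median 4.06) in MYC-OFF and 0.801 to 2.60 TPM (median 1.62) in MYC-ON, lower in 12 of 13 pairs. That was a change of -0.89 (SE 0.13, limma adjusted p = 6.67e-05), and of -1.24 (limma adjusted p = 6.32e-06) in the libraries with a median of at least 3.8. TAGLN exons overlap with PCSK7 on the opposite strand and with ENSG00000280143 on the same strand. Reads from the shared stretches cannot be told apart here.

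CALD1 (caldesmon, ENSG00000122786; chromosome 7, 134744252 to 134970729, + strand) blocks myosin from actin until calcium signals lift it. SHEP MYC-OFF libraries held 176 to 315 TPM (median 227) and MYC-ON libraries 111.6 to 223 TPM (median 160.4), lower in 27 of 28 pairs, with a change of -0.48 (SE 0.042, limma adjusted p = 2.58e-14). In SKNAS the ranges nearly coincided, 33.7 to 159 TPM (median 106) and 32.9 to 177 TPM (median 65.4). The change of -0.41 (SE 0.23, limma adjusted p = 0.154) was not called and read 0.25 (limma adjusted p = 0.246) in the libraries with a median of at least 3.8. CALD1 followed the library median closely, with r = 0.99 over the 14 SKNAS MYC-OFF and 0.98 over the 13 SKNAS MYC-ON libraries.

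ACTA2 (alpha smooth muscle actin, ENSG00000107796; chromosome 10, 88935074 to 88991339, - strand) gave a different picture in the 2 lines. Over the whole time course the SHEP groups overlapped, at 77.7 to 119.9 TPM (median 99.0) and 64.5 to 142 TPM (median 99.9), with MYC-ON higher in 15 of 28 pairs. The log2 change was -0.0070 (SE 0.043, limma adjusted p = 0.887), with a 95% interval from -0.091 to 0.077. This change is a mean over time. At CT24 MYC-ON stood at 79.7 and 74.3 TPM in the SHEP series, beside 97.1 and 84.0 TPM in MYC-OFF. At CT76 MYC-ON stood at 142 and 137 TPM, beside 107 and 103 TPM in MYC-OFF. In SKNAS all 13 MYC-ON libraries (8.39 to 20.7 TPM, median 18.0) lay below all 14 MYC-OFF libraries (24.3 to 48.3 TPM, median 38.9). ACTA2 was the only member whose SKNAS groups did not overlap. Outside the members, DES and FN1 also had such groups in SKNAS, and TGFB1I1, TPM4 and EHD2 had them in SHEP, whereas other listed genes overlapped. The share of all genes with such groups was not computed in either line. The SKNAS change was -1.14 (SE 0.13, limma adjusted p = 4.68e-06). It stood at -1.05 (limma adjusted p = 9.59e-07) in the libraries with a median of at least 3.8. Exons of ACTA2 overlap with ACTA2-AS1 and FAS on the opposite strand and with ENSG00000286116 on the same strand.

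CAV1 (caveolin 1, ENSG00000105974; chromosome 7, 116524994 to 116561179, + strand) coats caveolae, the flask-shaped pits of the plasma membrane that couple to stress fibres. SHEP MYC-OFF libraries reached 310.9 TPM (median 213) and MYC-ON libraries went down to 123 TPM (median 157), without overlap, as the highest MYC-ON library at 187.7 TPM stayed just under the lowest MYC-OFF library at 188.0 TPM. The change was -0.49 (SE 0.043, limma adjusted p = 4.27e-14). In SKNAS the fall was deeper, from 21.0 to 106 TPM (median 69.9) to 6.91 to 37.8 TPM (median 18.2), lower in 13 of 13 pairs. It amounted to -1.72 (SE 0.23, limma adjusted p = 2.30e-05), and to -1.14 (limma adjusted p = 0.000121) in the libraries with a median of at least 3.8.

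SRF itself (ENSG00000112658; chromosome 6, 43171269 to 43181506, + strand) was not called lower in either line. It ranged from 25.3 to 36.5 TPM (median 30.2) in SHEP MYC-OFF and from 20.1 to 48.7 TPM (median 33.4) in MYC-ON, higher in 22 of 28 pairs, 13 of 14 in series 1 and 9 of 14 in series 2. The change of 0.12 (SE 0.048, limma adjusted p = 0.0192) stayed under the 0.15 needed for a call. Series 1 alone gave 0.25 (limma adjusted p = 4.37e-05), whereas series 2 alone gave -0.0028 (limma adjusted p = 0.981). With rescaling and with the library median as covariate SRF was called higher in SHEP, at 0.16 and 0.19. SKNAS had 1.57 to 26.6 TPM (median 18.5) and 10.2 to 33.1 TPM (median 17.9), with 0.43 (SE 0.25, limma adjusted p = 0.163). There too it was called higher under both settings, at 0.70 with rescaling and 0.96 with the covariate. In the SKNAS libraries with a median of at least 3.8 the change was 0.40 and was called (limma adjusted p = 0.00612), as the 3 MYC-ON libraries had 25.0 to 33.1 TPM and the 10 MYC-OFF libraries 15.6 to 26.6 TPM.

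**Figure D2:**
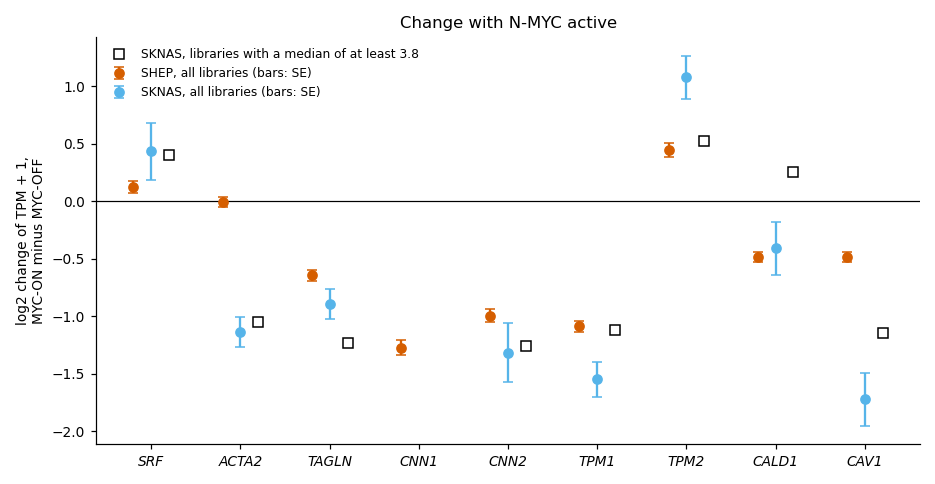
Log2 change of TPM + 1 from MYC-OFF to MYC-ON for 9 of the genes. Filled circles with SE bars are SHEP and SKNAS over all libraries, and open squares are SKNAS libraries with a median of at least 3.8. CNN1 was tested in SHEP only. TPM2 stands at 0.45 and 1.08, opposite to TPM1 at -1.09 and -1.55, and CALD1 in SKNAS changes side between the circle and the square.

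The partners of SRF were read from a list of 6. MRTFA and MRTFB, the actin-sensing coactivators, both fell. MRTFA had medians of 30.6 and 18.2 TPM in SHEP, a change of -0.73 (SE 0.049, limma adjusted p = 4.82e-18). In SKNAS it had 7.70 and 2.68 TPM, a change of -0.97 (SE 0.23, limma adjusted p = 0.00327), and of -0.81 in the libraries with a median of at least 3.8. MRTFB changed by -0.49 in SHEP and -0.93 in SKNAS, which became -0.38 (limma adjusted p = 0.300) in the SKNAS libraries with a median of at least 3.8. With each SHEP series averaged to 1 value per condition, the MRTFB change had limma adjusted p = 0.0536. ELK3, a ternary complex factor that can repress SRF targets, was lower in both lines, with a change of -0.50 (SE 0.029, limma adjusted p = 3.92e-20) in SHEP and of -1.29 (SE 0.19, limma adjusted p = 7.07e-05) in SKNAS, which was -0.77 in the libraries with a median of at least 3.8. In SHEP its 28 MYC-ON libraries, at 31.7 to 45.6 TPM, lay below all 28 MYC-OFF libraries, at 45.8 to 63.8 TPM. ELK4 rose in SHEP by 0.32, though series 2 alone gave 0.15 (limma adjusted p = 0.134). In SKNAS it gave 0.14 and was not called, but 0.78 (limma adjusted p = 0.0212) in the libraries with a median of at least 3.8. ELK1 was called in neither line (-0.085 and -0.44). MYOCD, the muscle coactivator myocardin, stayed under 1 TPM on average and was not tested, with SHEP medians of 0.663 and 0.113 TPM.

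The rest of the actin machinery was read from further lists. Their counts stand beside 38.9% of all genes called lower and 33% called higher in SHEP. In SKNAS these shares were 34.4% and 13.7%, and 27.5% and 21% in the 13 libraries with a median of at least 3.8. Of 22 tested crosslinkers and focal adhesion genes, 17 fell and 0 rose in SHEP, and 13 fell and 0 rose in SKNAS, or 14 and 1 in the 13 libraries with a median of at least 3.8. The examples named by size were TGFB1I1 (HIC-5), a focal adhesion adaptor, at -1.67 and -1.45 in SHEP and SKNAS, paxillin (PXN) at -0.64 and -1.58, and alpha-actinin 4 (ACTN4) at -0.73 and -1.36. In those 13 libraries PXN and ACTN4 came to -1.01 and -0.69. Of 15 tested myosin and tropomyosin partners, 14 fell and 1 rose in SHEP and 9 fell and 0 rose in SKNAS, where 8 fell in the 13 libraries. The essential light chain MYL6 changed by -1.76 and -0.76 and tropomyosin 4 (TPM4) by -0.76 and -1.32, and these were -1.38 and -0.74 in the 13 SKNAS libraries. Myosin light chain kinase (MYLK) changed by -1.66 in SHEP, while its value of -1.25 in SKNAS was not called (limma adjusted p = 0.0574) and was -0.18 in the libraries with a median of at least 3.8.

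Of the cytoplasmic actins, beta actin (ACTB) changed by -0.60 and gamma actin (ACTG1) by -0.27 in SHEP, and neither was called in SKNAS (-0.25 and -0.39).

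Genes of the caveolar coat fell along with CAV1, 5 of 7 tested in each line, with 2 higher in SHEP and 0 in SKNAS, and again 5 lower in the 13 SKNAS libraries. CAVIN3 gave -1.93 and -1.15 and the caveolar ATPase EHD2 -1.04 and -1.52 in SHEP and SKNAS, and CAVIN2, tested in SKNAS only, gave -1.71. Immediate early SRF targets fell in 5 of 6 tests in SHEP and in 4 of 5 in SKNAS (4 of 6 in the 13 libraries), with 0 higher in each, among them CCN2 (-1.42 and -1.46), CCN1 (-0.74 and -1.24) and IER2 (-0.53 and -0.50). Of the smooth muscle list only 2 genes were expressed enough to test in SHEP and 5 in SKNAS, and all of these fell, also in the 13 SKNAS libraries. Desmin (DES), synaptopodin 2 (SYNPO2) and HSPB6 gave -1.92, -1.84 and -1.62 in SKNAS. The medians of these lists lay between -0.38 and -0.53 in SHEP, where all genes had -0.036, and between -0.32 and -1.62 in SKNAS, where all genes had -0.29. In the 13 libraries, where all genes had -0.055, they lay between 0.041 for the actin isoforms and -1.49 for the smooth muscle list.

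Markers of cell state were called at shares near those of all genes in SHEP, where 8 of 10 tested mesenchymal and 2 of 4 adrenergic markers stood beside 71.8% of all genes. In SHEP, 6 of 10 tested mesenchymal markers fell and 2 rose, with fibronectin (FN1) at -2.24, FOSL2 at -0.86 and PRRX1 at 1.61, and the summed level of the list ranged from 4186 to 5536 TPM in MYC-OFF and from 3481 to 5086 TPM in MYC-ON. Of 4 tested adrenergic markers 2 rose and 0 fell there, GATA2 by 1.24, and their sum was 52.4 to 79.9 TPM in MYC-OFF and 79.3 to 113 TPM in MYC-ON. In SKNAS, 4 of 9 mesenchymal markers fell and 1 rose, beside 34.4% and 13.7% of all genes, with FN1 at -1.76 and FOSL2 at -1.36, with sums of 830.01 to 2252 and 686 to 2726 TPM. The adrenergic list there had 6 of 7 lower, with PHOX2A at -1.83, and GATA2 higher by 1.70. Its sum ranged from 337 to 997 TPM in MYC-OFF and from 269 to 1049.8 TPM in MYC-ON. The smooth muscle list summed to 63.6 to 118 and 43.2 to 79.6 TPM in SHEP and to 87.6 to 271 and 32.1 to 130.3 TPM in SKNAS. In the 13 SKNAS libraries, 3 of 9 mesenchymal markers were lower and 2 higher, about the 27.5% and 21% of all genes, and of 8 tested adrenergic markers 6 were lower and 1 higher. The part of cell state in the changes of the 10 genes was not tested.

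Whether the response differed between the lines was tested as an interaction. Of the 8 genes that passed the low-value limit in both lines, 2 were called, a share near the 21.1% of 14870 genes. ACTA2 differed by -1.13 (SKNAS minus SHEP, SE 0.097, limma adjusted p = 5.20e-15) and had the lowest adjusted p of the set. CAV1 fell further in SKNAS, with a difference of -1.24 (SE 0.15, limma adjusted p = 9.41e-10). CNN1 entered this fit through its SHEP level alone, since only 1 of its 14 SKNAS MYC-OFF libraries and 0 of the 13 MYC-ON libraries reached 1 TPM. Its value of 1.07 (SE 0.12, limma adjusted p = 1.09e-10) is therefore not read as a difference in response. In SHEP its median fell from 3.82 to 1.01 TPM. The untested SKNAS medians were 0.357 and 0.144 TPM, and MYC-ON was lower in 8 of 13 pairs and higher in 5. With SKNAS restricted to the libraries with a median of at least 3.8, ACTA2 kept -1.04, while CAV1 came to -0.66, just under the limit, and CALD1 to 0.74 (limma adjusted p = 1.68e-06), now called. The tropomyosins differed at an adjusted p under 0.05 but under 1.5-fold, TPM1 by -0.46 and TPM2 by 0.63, and in those libraries by -0.029 and 0.080. TAGLN differed by -0.25 (limma adjusted p = 0.0404), and by -0.59 in those libraries, and the intervals of SRF (-0.025 to 0.64), CNN2 (-0.67 to 0.031) and CALD1 (-0.23 to 0.38) each included 0. Among the partners, ELK3 fell further over all SKNAS libraries, with a difference of -0.79 (SE 0.12, limma adjusted p = 3.07e-07). The SKNAS change of ELK3 was smaller in the libraries with a median of at least 3.8, where its difference between the lines was not evaluated. Over all genes, the calls split into 743 higher and 2388 lower, and into 1184 and 1467 after rescaling.

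With N-MYC inactive, 6 of the 8 genes that passed the low-value limit in both lines were lower in SKNAS than in SHEP and 0 higher, where 50.5% of 14926 genes differed and 31.8% were lower. This contrast uses the same MYC-OFF libraries as the comparisons above, and compares 1 line with 1 line. TAGLN was furthest apart at -5.37 on the log2 scale (SE 0.089, limma adjusted p = 3.00e-31), followed by CNN2 at -3.11, CAV1 at -1.87, ACTA2 at -1.39, CALD1 at -1.33 and SRF at -1.03. TPM1 (-0.45) and TPM2 (0.36) were under the 1.5-fold limit. CNN1, which passed the low-value limit only through SHEP, stood at -1.97. In the SKNAS libraries with a median of at least 3.8, SRF came to -0.54 and was no longer called, and the other calls held. The calls over all genes were 2797 higher and 4744 lower, and 3318 and 3617 with the library median as covariate.

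The second question was how the levels moved during the time in culture. A linear trend was called for 8 of 9 genes in SHEP MYC-OFF, 7 falling and 1 rising, against 15.9% of all 14264 genes there. With active N-MYC it was called for 7 of 9, 6 falling and 1 rising, against 57.4% of all 14261 genes. CNN1 fell most steeply in both. In the 2 MYC-OFF series it went from 14.5 and 14.7 TPM at CT24 to 1.26 and 2.76 TPM at CT76. In the MYC-ON series it went from 4.49 and 4.88 TPM to 0.538 and 0.476 TPM. The fall was not steady, as MYC-OFF series 2 was lowest at CT40 (2.52 TPM) and stood at 5.35 TPM at CT52. On the log2 scale the slope of CNN1 per 24 h was -0.92 in MYC-OFF (SE 0.12, limma adjusted p = 2.80e-06). It was -0.70 in series 2 alone, where it was not called (limma adjusted p = 0.072). In MYC-ON it was -0.72 (SE 0.094, limma adjusted p = 2.47e-07). TAGLN had slopes of -0.36 and -0.46 per 24 h, in MYC-OFF from 207 and 284 TPM to 117 and 166 TPM. Its highest library, 354 TPM, was CT32 of series 1 in MYC-OFF, where CNN2, TPM2 and CALD1 were also at their highest of that group and the library median was 4.11. ACTA2 ran the other way. It rose by 0.11 per 24 h in MYC-OFF (SE 0.032, limma adjusted p = 0.0132) and by 0.35 in MYC-ON (SE 0.039, limma adjusted p = 1.64e-08), where it began at 79.7 and 74.3 TPM and ended at 142 and 137 TPM.

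**Figure D3:**
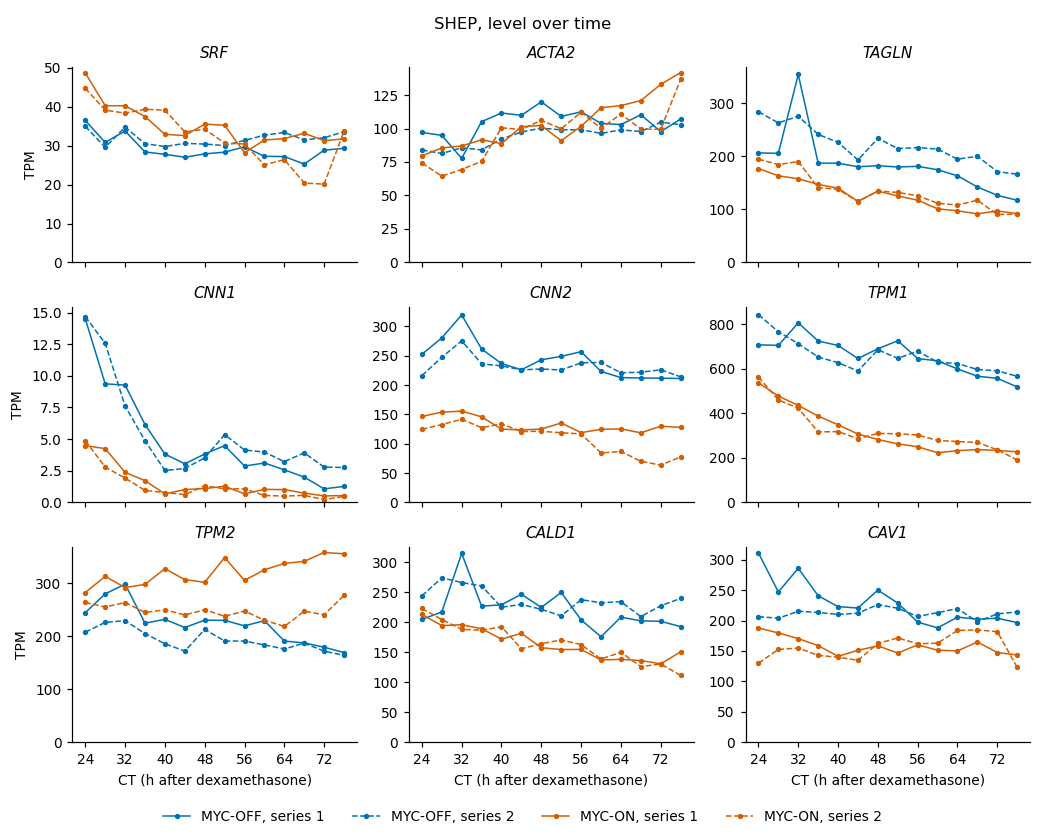
TPM against CT (h after dexamethasone) in SHEP for 9 of the genes, with MYC-OFF and MYC-ON as separate colours, series 1 as solid and series 2 as dashed lines. CNN1 falls from 14.5 and 14.7 TPM at CT24 in MYC-OFF, TPM1 falls faster in MYC-ON, and ACTA2 in MYC-ON climbs from below to above its MYC-OFF level.

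These trends differed between the conditions in SHEP. The difference of the slopes was called for 6 of 9 genes, against 43.4% of 14362 genes. TPM1 had a slope of -0.20 per 24 h in MYC-OFF and of -0.55 in MYC-ON, a difference of -0.35 (SE 0.053, limma adjusted p = 3.05e-07). TPM2 had a slope of -0.23 in MYC-OFF and of 0.048 in MYC-ON, which was not called (limma adjusted p = 0.171), a difference of 0.27 (SE 0.043, limma adjusted p = 6.76e-07). In MYC-ON the level of TPM1 thus fell with time, while TPM2 had no called trend. TPM2 began below TPM1 and ended above it in both series. TPM1 went from 537 and 562 TPM at CT24 to 227 and 190.2 TPM at CT76, while TPM2 went from 282 and 263 TPM to 355 and 277 TPM.

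SRF had a called slope in MYC-ON of -0.31 per 24 h (SE 0.050, limma adjusted p = 5.90e-06) and gave -0.052 in MYC-OFF (limma adjusted p = 0.267), a difference of -0.26 (SE 0.059, limma adjusted p = 0.000263). At CT24 it stood at 48.7 and 44.8 TPM in the MYC-ON series against 36.5 and 34.99 TPM in the MYC-OFF series. The mean of the last 4 time points was 32.02 and 25.2 TPM in MYC-ON and 27.7 and 32.6 TPM in MYC-OFF, higher in MYC-ON in series 1 and lower in series 2. The slopes of ACTA2 (difference 0.23), CNN2 (-0.18) and CALD1 (-0.22) also differed. TAGLN (-0.094), CNN1 (0.20) and CAV1 (0.13) were not called. CAV1 had a slope of -0.13 per 24 h in MYC-OFF over both series, but its slope was 0.0052 in series 2 alone and -0.26 in series 1. Series 2 alone gave 3 called trends in MYC-OFF, and series 1 alone gave 3 called differences.

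**Figure D4:**
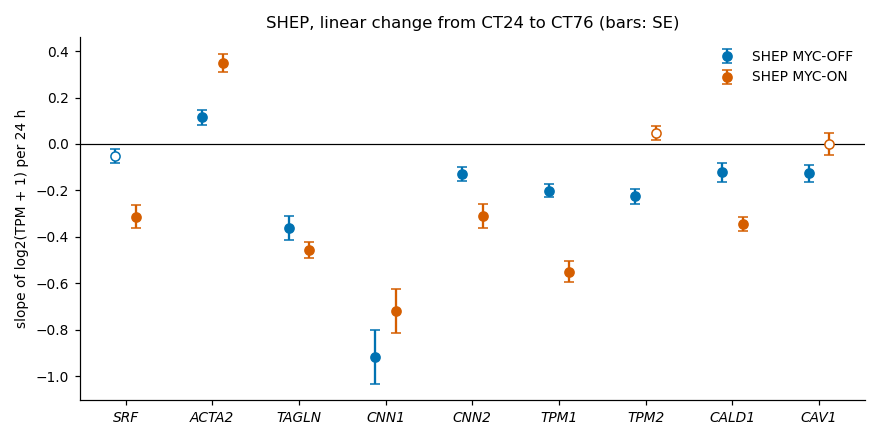
Slope of log2(TPM + 1) per 24 h with its SE in SHEP MYC-OFF and SHEP MYC-ON. Filled points were called at an adjusted p of at most 0.05 and open points were not. ACTA2 lies above 0 in both groups (0.11 and 0.35), and SRF, TPM1 and CALD1 lie lower in MYC-ON than in MYC-OFF.

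The direction of all called trends in SHEP depended on the scaling, with 825 rising and 1445 falling genes in MYC-OFF and 1122 and 1116 after rescaling. In MYC-ON it was 2919 and 5270, and 4142 and 3945 after rescaling, and the differences of the slopes went from 2306 and 3927 to 3245 and 3131. The called slopes of the 9 genes kept their direction under rescaling. In SKNAS, limma called no trend for any of the 8 genes in MYC-OFF, where 0% of 14119 genes were called, although 5 of 8 had an unadjusted p under 0.05, as did 5144 genes. The SKNAS MYC-ON series called none of the 8 (0.112% of 13365 genes; 1 of 8 at an unadjusted p under 0.05), and the difference of the slopes none either (0.0792% of 13886 genes; 0 of 8 at an unadjusted p under 0.05).

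No 24 h rhythm was called for any of the tested genes. The limma F test of a 24 h cosine and sine beside the trend called 0.0911% of all genes in MYC-OFF and 0.021% in MYC-ON of SHEP, and 0% in MYC-OFF and 0% in MYC-ON of SKNAS. At an unadjusted p under 0.05 stood 3 of 9 members in MYC-OFF and 1 of 9 in MYC-ON of SHEP, beside 1487 and 1528 of all genes. In SKNAS it was 0 of 8 in each condition, beside 63 and 46 of all genes. CNN2 in SHEP MYC-OFF came nearest, with an amplitude (peak above the mid-level) of 0.097 on the log2 scale (limma adjusted p = 0.195). The amplitude of CNN1 was 0.26 in both SHEP groups, the widest of the 9 genes there, with limma adjusted p = 0.447 and 0.367.

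How far the genes moved together was described by their deviations from the mean of their own series and condition over the 56 SHEP libraries, which share the time course and the library composition. TAGLN, CNN1 and TPM1 followed the mean of the other tested members most closely (r = 0.87, 0.83 and 0.76), and CNN2 and CALD1 gave 0.74 and 0.73. SRF gave 0.61, TPM2 0.37 and CAV1 0.22. ACTA2 ran against the set, at r = -0.72. Outside the set, the 10 genes with the highest correlation to the mean of the members were ACTB (r = 0.90), KCNMA1, ACLY, MYPN, CAPN2, ZYX, ANKRD13A, ELOVL1, LASP1 and TUBB3 (0.87), where the median over 14353 genes was 0.13 and the 95th percentile 0.66. The mean of the members itself correlated with the library median at 0.54.

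CArG boxes in the promoter windows were counted in the other lists as well. All 4 actin isoform genes with a window (ACTA1, ACTC1, ACTG1 and ACTG2) held one, as did 8 of 21 crosslinker and focal adhesion genes and 2 of 16 myosin and tropomyosin partners, MYLK and TPM4. The immediate early list had EGR1 and EGR2 of 7, and the smooth muscle list ACTG2 and SMTN of 7. None of the 5 cofactor genes, 6 caveolar genes, 6 adrenergic genes or 7 mesenchymal genes with a window did. Of the 2 members with a box, CNN2 fell in SHEP (-0.996) and SRF was not called (0.12). TPM1 and TPM2, which changed in opposite directions, had no match in their windows. The TPM1 window (chr15:63048239-63048538) lies inside the gene, so the region around its Gencode start at 63042620 was not searched.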

How the data were processed

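Polyadenylated RNA had been sequenced on a NovaSeq with paired ends. Salmon 1.3.0 was run by the authors on Gencode transcripts of GRCh38, with tximport for the step to genes, and the deposited table holds the TPM of 60237 genes in 83 libraries, 0 columns being left without a sample. A further line and a repeat of the SKNAS series are not analysed here. Since the table has no counts, the DESeq2 model used by the authors was not run, and limma 3.58.1 (R 4.3.3) was applied to log2(TPM + 1). As in the study, time was a factor and the time points served as replicates, and p-values were adjusted over all genes tested. TPM carry no read depth, so no counting error can be given, and a fall of some genes raises the share of others.

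Trends used CT as a line per 24 h with a mean per series, rhythms a cosine and sine of 24 h beside the trend, and the line difference an interaction over all libraries. The interaction and the line difference were called at 0.66, trends and rhythms by the adjusted p alone. The fits were tested on simulated data first. The members, lists and the library median limit of 3.8 were chosen with earlier results of these data known. The genes named are the 10 members, MYCN, the SRF cofactors, up to 3 genes per list with the largest mean change over both lines among those called, and the 10 genes most correlated with the members. Alternatives were a pseudocount of 0.1, no filter on low values, median-of-ratios rescaling, the library median as covariate, each SHEP series left out, a series block, series means as replicates, periods of 20 and 28 h and the SKNAS libraries with a median of at least 3.8. The last was extended to the line differences, the trend and the gene lists after the data were seen. The labels call the SHEP series replicate experiments, and the differences between series 1 and 2 in MYC-OFF and MYC-ON correlated at 0.49 over 14362 genes. Promoters are RefSeq sequences, and gene positions come from Gencode 44 (both GRCh38). The results of 1 further gene list and of some marker genes are not reported here. Figures were drawn with matplotlib 3.10.9.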

Additional observations from a re-analysis of the deposited data

Results flagged for a closer look

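Over all libraries, the test of the difference itself called ACTA2 and CAV1 for a response to N-MYC that differed between the lines. They were 2 of the 8 genes that passed the low-value limit in both lines. The share called among all 14870 genes was similar, at 21.1%. ACTA2 differed by -1.13 on the log2 scale (SKNAS minus SHEP), lower in MYC-ON in 13 of 13 SKNAS pairs and in 13 of 28 SHEP pairs. Its SHEP change averages over time, as MYC-ON began below MYC-OFF at CT24 and ended above it at CT76. CAV1 differed by -1.24 and was lower in 13 of 13 and 28 of 28 pairs. CNN1 also passed that test, at 1.07, but it met the low-value limit through SHEP alone and lay under 1 TPM in nearly every SKNAS library, so its value is not read as a difference in response. In the SKNAS libraries with a median of at least 3.8 ACTA2 came to -1.04 and CAV1 to -0.66, which no longer passed the limit. The part of the library median in these differences was not tested further.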

How the results depend on the processing

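The number of members called in each comparison stayed within 1.5 times its value in 73 of 76 alternatives. The exceptions concern trends: 3 and 6 members in SHEP MYC-OFF with one or the other series left out (8 over both), 3 and 5 for the SHEP trend difference (6 over both, likewise), and 1 for the SKNAS trend difference with the library median as covariate (0 without it). With the series as a replicate block, 7 SHEP members were called, as without it, and the block changed no other member call. In SHEP, ACTA2 came to 0.026 with rescaling and ELK1 to 0.027 with the covariate. Leaving out either SHEP series gave -0.0028 to 0.25 for SRF, -0.017 to 0.0026 for ACTA2 and -0.19 to 0.025 for ELK1, and -0.26 to 0.0052 for the MYC-OFF slope of CAV1. In SKNAS, ACTB came to 0.011 with rescaling. With the covariate CALD1 came to 0.16, MYCN to 0.65, ELK1 to 0.52, ACTG1 to 0.20, MYLK to 0.090 and PRRX1 to 0.35, and the line difference of CNN2 to 0.15. In the SKNAS libraries with a median of at least 3.8, CALD1 came to 0.25, MYCN to 0.020, ACTG1 to 0.17 and PRRX1 to 0.47. The cause was not tested. SRF was called higher in SKNAS with rescaling (0.70), the covariate (0.96) and those libraries (0.40), and in SHEP with rescaling (0.16) and the covariate (0.19). The difference of TPM2 between lines was called with rescaling (0.86) and without series 1 (0.72). SKNAS MYC-ON has 3 such libraries, so no trend was fitted there. Depth is unknown for TPM, and genes under 1 TPM were not tested.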
